A study of Homo sapiens with 12 samples.

Results

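The genes described here encode the protein components of the cytosolic ribosome. A gene was included when a probe set, the group of short probes that reports 1 transcript on the array, was annotated to exactly 1 symbol of the RPL, RPS or RPLP series. Kinases and pseudogenes were left out, and the probe set with the highest mean over all arrays stood for each gene. This gave 58 of the 11963 genes that had such a probe set, 36 of the large and 22 of the small subunit, measured by 96 probe sets in all. A further 16 ribosomal protein genes, among them RPL5, RPL10, RPL13A and RPS3A, were named only on probe sets that also carried other symbols, often those of small nucleolar RNAs, and were kept apart. RPS4Y1 is Y-linked: it was counted among the 58, and its level is not given.

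RNA came from acini of the S1 subline of HMT-3522, human breast epithelium that is established in culture and not neoplastic, grown in 5% Matrigel at passages 55 to 60. The study compared 3 groups of 4 Affymetrix arrays, numbered 1 to 4 in each: vehicle (apically polarized), AGA and Aza (both non-polarized). AGA stands for 18-alpha-glycyrrhetinic acid, which blocks gap junctions, and Aza for 5-aza-2'-deoxycytidine, which blocks DNA methyltransferases. Each drug was present at 10 µM for 10 days from plating, with medium renewed every 2 days, and all cells were without EGF for the last 48 h after 8 days of culture with it. The series calls the arrays of a group biological replicates and says no more of how the cultures were separated, so p-values rest on the spread between these samples only. In fits with the replicate number as a block, this is the spread left after differences shared by a number are removed. The agent in the vehicle is not given in the sources used here.

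Ribosomal proteins assemble with ribosomal RNA into a large subunit, which joins amino acids, and a small subunit, which reads the messenger RNA. Their messenger RNAs typically begin with a cytosine followed by a run of pyrimidines, the 5′ terminal oligopyrimidine (TOP) tract, through which mTOR signalling controls their translation. Production of ribosomes is a major expense of a growing epithelial cell and falls when cells leave the cycle.

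RefSeq start sites on GRCh38.p14 were matched by symbol for 50 of the 58 genes, and no entry was matched for RPL3L, RPL7, RPL8, RPL23A, RPL30, RPL37, RPL39L and RPS15A. A tract, taken as C at the annotated start followed directly by at least 4 pyrimidines on the gene's strand, was found in 34 of the 50 (68%), against 1404 of 27305 genes in the table (5.14%). The tract was 5 to 19 bases long, with a median of 8. The sequences below show the start of 4 members with a tract and of 4 paralogues without one, of which RPS27 and RPS27L are a gene and its own copy. Each has 12 bases before the annotated start and 15 from it, and capitals mark the run of pyrimidines that begins with C at the start.
RPS6: cggaagttggccCTCTTTTCCgtggcg
RPS23: tgcggtgcttctCTCTTTCgctcaggc
RPL39: ttccgccagcttCCCTCCTCTTCCTTT
RPS27: tccgctttcgctCCTTTCCggcggtga
RPS27L: ttgatgccgagcgcagatcgcttgcag
RPL36AL: tttcttccctttCCTgttaggcgagag
RPL26L1: cttccaggggtcggcgaacgaaacgcg
RPL10L: gcgtagttaagagagcgcattttgact

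The windows lay at chr9:19380222-19380248 on the minus strand for RPS6, chr5:82278340-82278366 on the minus strand for RPS23 and chrX:119791616-119791642 on the minus strand for RPL39. RPS27 lay at chr1:153990750-153990776 on the plus strand, and its paralogue RPS27L at chr15:63157463-63157489 on the minus strand. RPL36AL lay at chr14:49620612-49620638 on the minus strand, RPL26L1 at chr5:172958717-172958743 on the plus strand and RPL10L at chr14:46651767-46651793 on the minus strand. RPS6, RPS23, RPL39 and RPS27 had a tract, RPL36AL had a run of only 3 bases, and RPS27L, RPL26L1 and RPL10L had none at the annotated start. A match of letters is a description, and its absence says only that these letters are not at that annotated position.

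The labelled cell type was checked against its markers on the quantile scale, on which all arrays share 1 distribution of log2 intensities. Of the basal epithelial genes KRT5 had a mean level of 12.39, KRT14 of 12.37, ITGB4 of 8.80 and LAMB3 of 4.81. Of the other epithelial genes KRT18 was at 7.94, CDH1 at 7.84, KRT8 at 7.40, KRT7 at 3.01 and EPCAM at 1.47, while KRT19 lay at the floor on all arrays. Of the markers of other cell types, 6 fibroblast genes ranged from 0.20 to 7.15, 5 endothelial genes from 0.76 to 7.57 and 6 leukocyte genes from 1.19 to 5.98. The summed level of the basal list was 13.11 to 13.75 in vehicle, 13.62 to 13.89 with AGA and 13.07 to 13.73 with Aza, with all 4 genes higher with AGA by a median of 0.46. That of the epithelial list was 9.16 to 9.82, 9.32 to 9.71 and 9.03 to 9.66 in the same order. The summed fibroblast level was 7.40 to 8.04 in vehicle, 7.01 to 7.73 with AGA and 7.82 to 8.10 with Aza. The endothelial sum was 7.31 to 8.30, 6.69 to 7.85 and 7.57 to 8.37, and the leukocyte sum 6.40 to 6.82, 6.81 to 7.17 and 6.40 to 6.64. The vehicle and drug ranges overlapped in every list, least for the leukocyte list with AGA, and the part of these cells in the results was not tested. The median deposited intensity was 29.6 to 35.9 in vehicle, 23.3 to 30.2 with AGA and 25.5 to 31.0 with Aza.

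The ribosomal protein genes sat at the bright end of every array. On the quantile scale 46 of the 58 lay above a log2 level of 12, all of them in the top 1% of probe sets, and 51 lay above 11. Their median intensity was 55.8% to 67.5% of the highest on the same array. Brightness belongs to a probe as much as to its transcript, so no order between the genes is drawn from it. For the 51 bright members the SD within a group ranged from 0.033 to 0.314 log2, with a median of 0.084. The 7 others were RPL26L1 at 9.52, RPL27A at 7.16, RPLP2 at 5.01, RPL39L at 4.91, RPL10L at 4.49, RPL3L at 1.92 and the Y-linked RPS4Y1.

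No ribosomal protein gene passed the test under either drug. With limma on the quantile scale and the replicate number as a block, 0 of 58 were called at an adjusted p under 0.05 for AGA against vehicle, where 0.009% of all 22215 probe sets were called, and 0 of 58 for Aza against vehicle, where the background was 0%. For Aza against AGA it was 0 of 58 with a background of 0.009%, and for both drugs against vehicle 0 of 58 with a background of 0%. At an unadjusted p under 0.05 the counts over the 57 genes other than RPS4Y1 were 1, 0, 0 and 0 in the same order, against 9.52%, 5.39%, 9.13% and 6.68% of all probe sets. With each array centred on its own median they were 11, 0, 0 and 9, all higher than vehicle, against 9.28%, 5.2%, 8.47% and 6.58%. The lowest adjusted p among the members was 0.499, 0.928, 0.601 and 0.767. The standard error of a bright member's difference, 0.09 log2 at the median, borrows from dimmer probe sets. A fit that let it depend on intensity, named the intensity trend here, also used limma's robust setting. The part of each in its results was not separated. It brought the standard error to 0.04, with 0 members called in each comparison. Of all probe sets 156 (0.702%) were then called for AGA, 1 (0.0045%) for Aza, 189 (0.851%) for Aza against AGA and 0 (0%) for both drugs. In that fit 9, 2, 5 and 4 of the 57 genes had an unadjusted p under 0.05, against 11.8%, 6.47%, 11.2% and 8.58% of all probe sets. With that trend on centred arrays the counts were 41, 37, 1 and 44, against 11.9%, 6.82%, 10.5% and 9.07%, so these counts depended on the scale. They also depended on the floor put under the intensities. With a floor of 16 in place of 1, on the quantile scale without the trend, they were 15, 5, 9 and 9 by limma. Of the 15 for AGA, 9 were higher. The share of all probe sets in that fit is not given here. The median standard error was then 0.03, and the lowest adjusted p was 0.21, 0.714, 0.359 and 0.481. Since these are bulk samples, a change in the number of cells of a kind and a change in RNA per cell cannot be told apart.

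On the quantile scale the median of the family differed little between the groups, but this scale leaves it little room to move. All arrays share the same distribution there, and 46 of the 58 members lay above level 12, beside 99 other probe sets. A shift shared by the brightest probe sets is removed on this scale, so these medians cannot tell whether the family moved with them. The median difference over the 58 genes was 0.00 for AGA, with 30 genes above 0, and 0.02 for Aza, with 40 above 0; it was 0.02 for Aza against AGA, with 36 above 0. The median of all probe sets was 0.00 in all 3 comparisons. Both subunits gave near-zero medians: 0.01 for the large and 0.00 for the small under AGA, and 0.02 and 0.01 under Aza. The AGA and Aza comparisons share the vehicle arrays, so their resemblance is not independent.

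The direction of the family depended on the scale. On the deposited scale the median was -0.09 for AGA, with 7 of 58 genes above 0, and 0.07 for Aza, with 54 above 0, while all probe sets had medians of -0.24 and -0.06. With each array centred on its own median it was 0.19 for AGA, with 56 of 58 above 0, and 0.16 for Aza, with 57 above 0, against 0.04 and 0.03 for all probe sets. The sign for AGA thus turned between the scales. Relative to the median of all probe sets the family was higher under both drugs. Centring takes the same value from every probe set of an array, so this margin is equal on the deposited and centred scales by construction. Its presence on both scales is not separate evidence. By replicate number the centred difference was 0.31, 0.07, 0.30 and 0.11 for AGA, and 0.26, 0.05, 0.15 and 0.20 for Aza, above 0 in all 4 pairs of each and smallest in the pair numbered 2. The deposited difference for AGA was -0.04, 0.08, -0.30 and -0.10, which includes both signs, and for Aza it was 0.33, 0.09, -0.09 and -0.02.

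**Figure D1:**
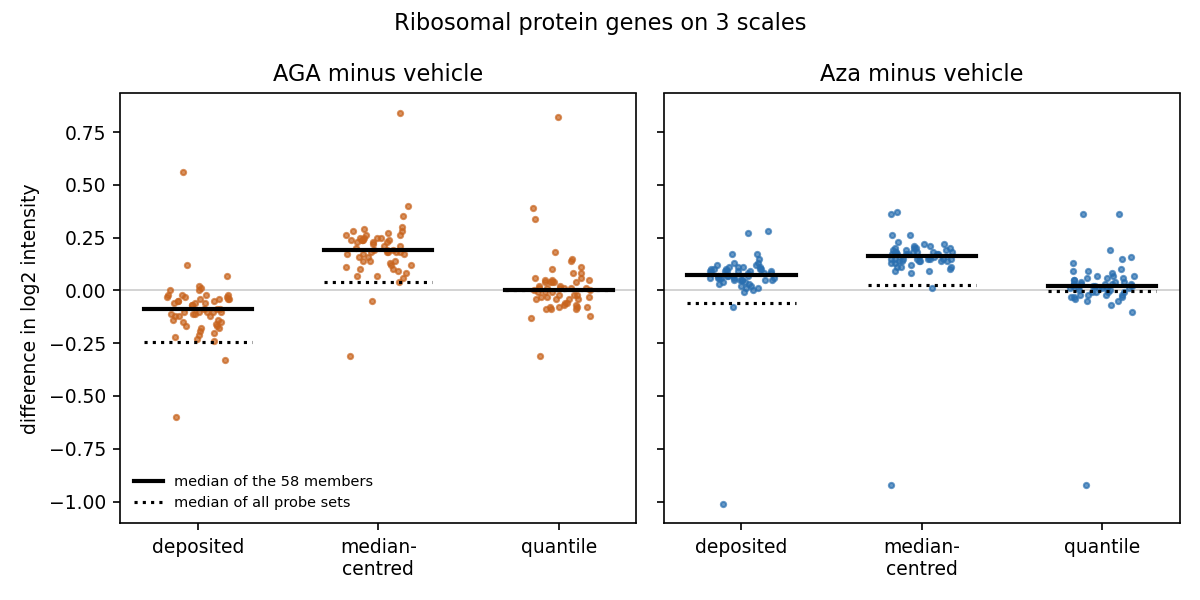
Each point is 1 of 57 ribosomal protein genes (RPS4Y1 is not drawn), placed by its difference from vehicle in log2 intensity on the deposited, median-centred and quantile scales, for AGA on the left and Aza on the right; sideways scatter only separates points. Solid lines are the medians of the 58 members and dotted lines those of all probe sets, and the AGA cloud moves from a median of -0.09 to 0.19 and to 0.00 with the scale.

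The share of each array's summed intensity held by the 58 probe sets is not moved by a factor common to an array's probe sets, but it is itself a scaling by the array's sum. It was 6.97%, 7.87%, 6.80% and 7.70% on the vehicle arrays numbered 1 to 4, a mean of 7.33% ± 0.529 (SD, n = 4). With AGA it was 7.68%, 7.99%, 7.55% and 8.16%, a mean of 7.85% ± 0.278 (SD, n = 4), and with Aza 7.34%, 7.91%, 7.60% and 8.39%, a mean of 7.81% ± 0.453 (SD, n = 4). The share was higher than in the vehicle array of the same number in 4 of 4 pairs for each drug, by a mean ratio of 1.07, yet the groups overlapped. The vehicle arrays numbered 1 and 3 were lowest. These were also the arrays with the lowest 3′ to 5′ log2 ratio of ACTB, 1.26 and 1.29, against 1.40 to 1.80 on the other 10. The same ratio of GAPDH was 0.28 and 0.22 on them, within the range of 0.19 to 0.46 over all arrays, and the part of RNA quality in the share was not tested.

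Other bright probe sets moved in the same way. The 99 probe sets above level 12 that name no ribosomal protein held 12.8%, 13.8%, 11.9% and 13.1% of the summed intensity in vehicle, 13.8%, 13.9%, 13.5% and 14.1% with AGA, and 13.1%, 13.9%, 12.7% and 13.9% with Aza, again higher in 4 of 4 pairs for each drug. Their median difference on centred arrays was 0.19 for AGA and 0.14 for Aza, beside 0.19 and 0.16 for the ribosomal protein genes. The 9543 probe sets below level 4 had medians of 0.11 and 0.06, those at 6 to 8 of 0.01 and 0.01, and those at 10 to 11 of 0.11 and 0.07, so the medians were lowest at middle levels and highest above 12. No difference between the ribosomal protein genes and the other bright probe sets was tested, and nothing particular to the family is drawn from these values.

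**Figure D2:**
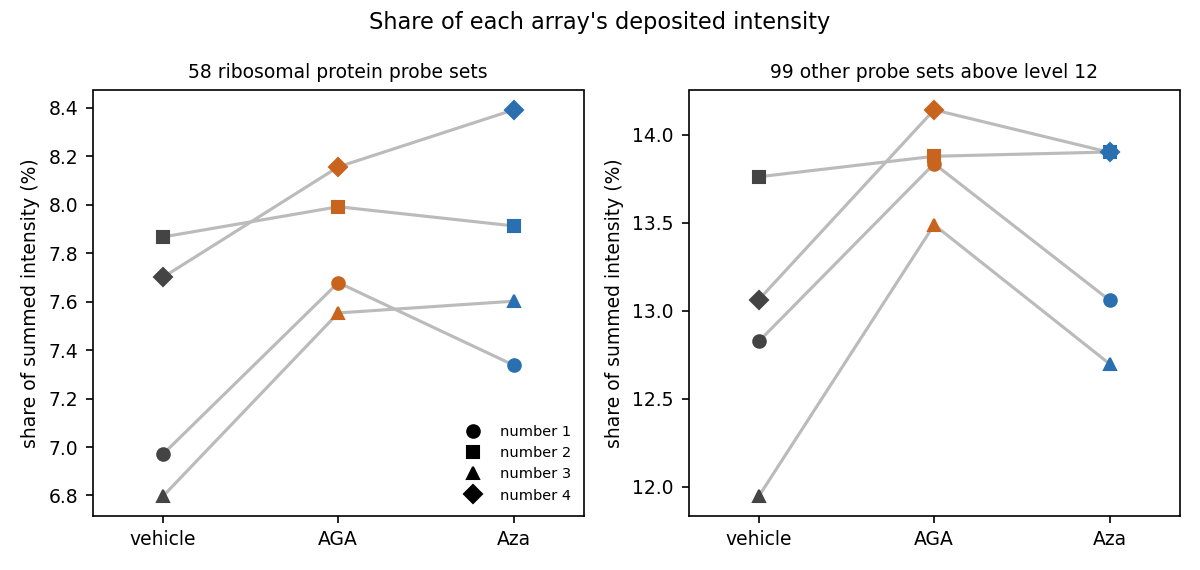
Share of each array's summed deposited intensity, in percent, held by the 58 ribosomal protein probe sets (left) and by the 99 other probe sets above level 12 (right); axes do not start at 0, marker shapes give the replicate number and grey lines join arrays of 1 number. Both shares rise from vehicle to each drug in 4 of 4 numbers, and among the vehicle arrays those numbered 1 and 3 are lowest in both panels.

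**Figure D3:**
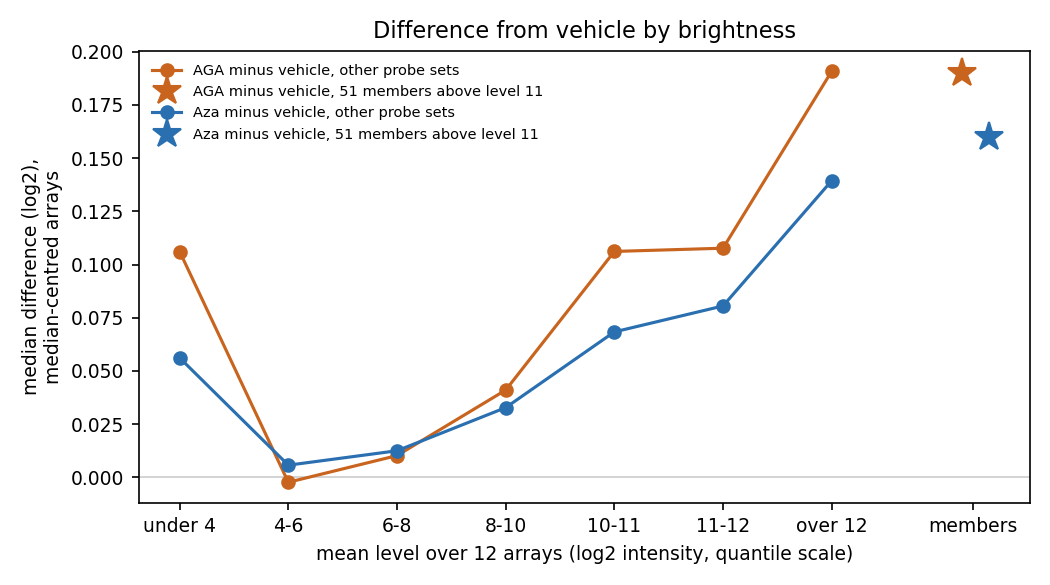
Median difference from vehicle in log2 intensity on median-centred arrays, for probe sets naming no ribosomal protein binned by their mean level over the 12 arrays, with stars for the 51 members above level 11. The lines start at 0.11 and 0.06 below level 4, lie near 0 at levels 4 to 8 and reach 0.19 for AGA and 0.14 for Aza above level 12, beside members at 0.19 and 0.16.

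Among the small subunit members whose levels are given, RPS23, which lies near the decoding centre, had the lowest p for AGA, 0.226 by limma. RPS25 had nearly the same p, 0.227, in the other direction, at -0.12 ± 0.09 and lower in 4 of 4 pairs. The quantile level of RPS23 was 13.21, 13.13, 13.10 and 13.16 in vehicle, 13.20, 13.29, 13.27 and 13.29 with AGA, and 13.23, 13.17, 13.20 and 13.25 with Aza. The AGA arrays numbered 2 to 4 lay above all vehicle arrays and number 1 did not; the difference was 0.11 ± 0.09 (SE), adjusted p = 0.722 by limma. With arrays centred on their medians it was 8.18, 8.33, 8.03 and 8.30 in vehicle and 8.45, 8.50, 8.57 and 8.52 with AGA, a difference of 0.30 without overlap. RPS23 was the only member called in any fit run here: with centred arrays, the replicate block and the intensity trend its adjusted p for AGA was 0.0402, where 158 of all probe sets (0.711%) were called. On the deposited scale its difference was 0.02. With the trend on the quantile scale it was 0.11 ± 0.04, unadjusted p = 0.0111 and adjusted p = 0.232 by limma.

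RPS6, the small subunit protein phosphorylated by the S6 kinases downstream of mTOR, was at 12.97, 12.93, 13.08 and 12.87 in vehicle, 13.01, 13.00, 12.99 and 12.93 with AGA, and 13.04, 13.01, 13.01 and 12.97 with Aza. All 3 groups overlapped, with differences of 0.02 ± 0.09 for AGA and 0.04 ± 0.09 for Aza. RPS3, at the messenger RNA entry, differed by 0.05 ± 0.08 and 0.01 ± 0.08. RPS14 and RPS19, whose loss underlies acquired and inherited anaemias of ribosome failure, differed by -0.01 ± 0.09 and 0.04 ± 0.09 for AGA and by 0.01 ± 0.09 and 0.03 ± 0.09 for Aza. In this fit on the quantile scale none of these 4 genes differed by more than its standard error under either drug. On centred arrays RPS6 lay above all vehicle arrays with AGA, by 0.24, and with Aza, by 0.21. RPS19 did so with AGA, by 0.27.

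On the quantile scale 4 of the 58 genes had AGA and vehicle arrays that did not overlap, 2 higher (background 1.23%) and 2 lower (background 1.29%). RPS15, a protein of the small subunit head, was at 12.79, 12.76, 12.69 and 12.78 in vehicle and 12.80, 12.83, 12.81 and 12.87 with AGA. RPS27L, described with the paralogues, was the other gene above. RPS4X, the X-linked copy of this small subunit protein, was at 13.07, 13.11, 13.15 and 13.08 in vehicle and 13.05, 13.04, 12.97 and 13.03 with AGA. RPL9, a protein of the large subunit, was at 12.94, 12.98, 13.03 and 12.96 in vehicle and 12.87, 12.93, 12.91 and 12.83 with AGA. The differences of 0.08, -0.08 and -0.09 for RPS15, RPS4X and RPL9 did not pass the test, with an adjusted p of 0.806 for RPS4X and 0.774 for RPL9. For Aza 0 of 58 lay above vehicle without overlap (background 0.846%) and 0 below (background 0.878%). Against AGA, RPS18 alone lay higher with Aza (1 of 58, background 1.24%), at 12.85 to 13.01 against 12.77 to 12.84, and 0 of 58 lay lower (background 1.34%). On centred arrays 13 lay above vehicle with AGA (background 1.92%), among them RPL8, RPL30, RPL10A, RPS6 and RPS19, and 4 with Aza (background 0.995%), namely RPL8, RPL30, RPL10A and RPS6. On the deposited scale 0 members lay above or below vehicle without overlap, where the backgrounds were 0.36% and 4.43% for AGA and 0.522% and 1.08% for Aza. Members higher in 4 of 4 pairs numbered 8 for AGA (background 9.15%) and 9 for Aza (background 7.61%) on the quantile scale, and 38 (background 12.3%) and 36 (background 9.04%) on centred arrays. Those lower in 4 of 4 pairs numbered 6 for AGA (background 9.06%) and 1 for Aza (background 7.12%) on the quantile scale, and 0 for each (backgrounds 7.31% and 5.83%) on centred arrays. On the deposited scale 0 were higher (background 1.93%) and 3 lower (background 20%) for AGA, and 2 higher (background 3.41%) and 0 lower (background 7.21%) for Aza.

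Among the large subunit genes, RPL10A had the lowest p for Aza. On centred arrays it was at 6.77, 7.11, 6.97 and 7.10 in vehicle, 7.15, 7.29, 7.37 and 7.27 with AGA, and 7.25, 7.20, 7.17 and 7.35 with Aza, so that all arrays of both drugs lay above vehicle. On the quantile scale the difference was 0.15 ± 0.09 for AGA, higher in 4 of 4 pairs, and 0.15 ± 0.09 for Aza, higher in 3 of 4; adjusted p was 0.661 and 0.928 by limma. Vehicle number 1 was the lowest of the 12 arrays on both scales.

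RPL39, a small protein that lines the exit tunnel, was at 13.12, 13.19, 13.19 and 13.00 in vehicle, 13.02, 13.12, 12.86 and 12.99 with AGA, and 13.08, 13.16, 13.17 and 13.02 with Aza. AGA lay lower in 4 of 4 pairs, by -0.13 ± 0.10 with an adjusted p of 0.721, and most in number 3; on centred arrays the same difference was 0.10. RPL3, which reaches the peptidyl transferase centre, differed by 0.05 ± 0.08 for AGA and 0.04 ± 0.08 for Aza, higher in 4 of 4 pairs of each.

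RPLP1 and RPLP2 form the acidic stalk that recruits elongation factors. RPLP1 was at 12.95, 12.91, 12.96 and 12.84 in vehicle, 12.91, 12.94, 13.00 and 12.90 with AGA, and 12.88, 12.96, 13.35 and 13.00 with Aza. The Aza array numbered 3 stood highest, and the Aza difference was 0.13 ± 0.11. RPLP2, whose brightest probe set was dim, was at 4.54, 5.26, 5.11 and 4.70 in vehicle, 4.52, 4.41, 5.11 and 5.39 with AGA, and 4.93, 5.42, 5.23 and 5.48 with Aza. It was higher than vehicle in 4 of 4 pairs with Aza by 0.36 ± 0.23, adjusted p = 0.928 by limma. Its other probe set, dimmer still at a level of 3.08, went the other way with Aza, by -1.14 ± 0.47. No direction is therefore drawn for RPLP2. RPL27A, a large subunit protein also on a dim probe set, was at 6.48, 7.37, 6.81 and 6.98 in vehicle, 7.50, 7.12, 7.32 and 7.26 with AGA, and 7.55, 7.09, 7.40 and 7.02 with Aza. It was higher in 3 of 4 pairs under each drug, by 0.39 ± 0.23 and 0.36 ± 0.23, and lower in number 2. RPL11, which with RPL5 binds MDM2 when ribosome assembly is disturbed, differed by -0.09 ± 0.10 for AGA and 0.01 ± 0.10 for Aza.

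The paralogues, copies of a ribosomal protein gene, included the genes with the largest log2 difference under AGA, RPL39L, and under Aza, RPL3L. RPL39L, a copy of RPL39 best known from testis, was at 4.48, 4.72, 4.19 and 4.92 in vehicle, 5.36, 5.46, 5.87 and 4.89 with AGA, and 3.98, 4.90, 5.37 and 4.84 with Aza. The AGA arrays numbered 1 to 3 lay above all vehicle arrays and number 4 did not. The difference was 0.82 ± 0.31 for AGA (unadjusted p = 0.0318, adjusted p = 0.499 by limma), 3 of 4 pairs higher, and without the arrays numbered 4 it was 1.10 with an adjusted p of 0.63. Without the vehicle array numbered 3, the lowest of its group, it was 0.51 with an adjusted p of 0.72, and on the deposited scale it was 0.56. Its deposited intensities were only 21.7 to 31.2 in vehicle and 26.5 to 50.0 with AGA, against array medians of 23.3 to 35.9.

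RPL26L1, a copy of RPL26, was at 9.50, 9.36, 9.40 and 9.35 in vehicle, 9.65, 9.54, 9.70 and 9.45 with AGA, and 9.80, 9.47, 9.71 and 9.29 with Aza. It was higher in 4 of 4 pairs with AGA by 0.18 ± 0.10 (adjusted p = 0.618) and in 3 of 4 with Aza by 0.16 ± 0.10 (adjusted p = 0.928). RPS27L, a copy of RPS27 known as a p53 target, was at 11.21, 11.21, 11.07 and 11.11 in vehicle, 11.26, 11.29, 11.29 and 11.30 with AGA, and 11.33, 11.10, 11.50 and 11.03 with Aza. The AGA arrays all lay above vehicle, by 0.14 ± 0.12, and the Aza arrays spread to both sides. RPS27 itself differed by -0.06 ± 0.08 for AGA and -0.05 ± 0.08 for Aza.

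RPL36AL, a copy of RPL36A, was at 10.96, 11.28, 11.22 and 11.54 in vehicle, 11.03, 11.24, 11.03 and 11.45 with AGA, and 11.06, 11.27, 11.28 and 11.42 with Aza, and the array numbered 4 was the highest of each group. RPL10L, a testis copy of RPL10, ranged from 3.56 to 5.06 in vehicle, 4.28 to 5.20 with AGA and 3.65 to 5.03 with Aza. RPL3L, the copy of RPL3 found in heart and skeletal muscle, was at 4.54, 2.21, 1.51 and 1.07 in vehicle, 2.21, 1.85, 1.82 and 2.18 with AGA, and 0.55, 1.49, 2.39 and 1.20 with Aza. Its Aza difference of -0.92 ± 0.73 was -0.07 without the vehicle array numbered 1, and 2 of 4 pairs were lower.

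**Figure D4:**
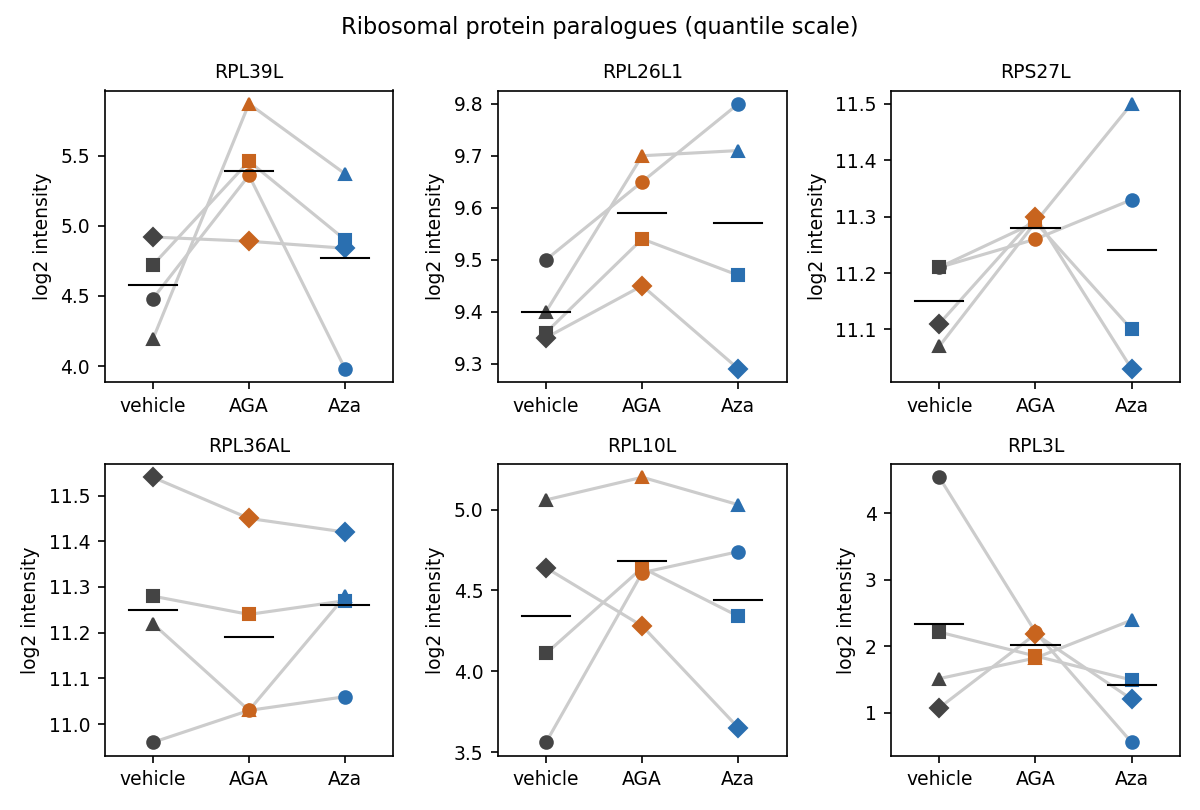
Log2 intensity on the quantile scale of 6 ribosomal protein paralogues on every array, with marker shapes for replicate numbers (circle 1, square 2, triangle 3, diamond 4), grey lines joining arrays of 1 number and black bars for group means; each panel has its own axis. RPL39L is higher with AGA in 3 of 4 numbers, RPS27L with AGA lies above all vehicle arrays, and RPL3L is high on 1 vehicle array.

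On the quantile scale replicate number took a larger share of the variation than treatment. There are 4 numbers and 3 groups, so number would take the larger share on average even without any effect. Of the sum of squares of a member over the 12 arrays, the number took a median of 55.6% and treatment 12.1%, and number exceeded treatment in 45 of 58 genes (77.6%, against 77.3% of all probe sets); over all probe sets the medians were 40.8% and 12.5%, and over the 99 other bright probe sets 63.5% and 12.3%. On centred arrays the members' medians were 33.3% and 37.6%, and number exceeded treatment in 28 of 58 (48.3%, against 77.4%). In 10 of the 58 genes all 3 arrays numbered 4 lay above the other 9 (17.2%, against 7.51% of all probe sets), and in 8 all 3 lay below (13.8%, against 7.11%). Of the 99 other bright probe sets 8.08% lay above and 21.2% below in this way. On centred arrays 11 members lay above (19%, against 6.63%) and 0 below (against 7.05%), and on the deposited scale 2 above (3.45%, against 2.48%) and 0 below (against 7.58%), so of these scales members lay below on the quantile scale alone.

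On the quantile scale RPL11 was 12.31 to 12.48 on the arrays numbered 4 and 11.84 to 12.10 on the others. RPL22, which also acts on RNA outside the ribosome, was 12.03 to 12.09 against 11.43 to 11.77, and RPS12 was 12.58 to 12.65 against 12.16 to 12.35. RPL36 was 11.79 to 11.80 against 10.93 to 11.73. In the other direction RPL12, a stalk base protein, was 12.38 to 12.49 against 12.52 to 12.66, and RPS24 was 12.51 on all 3 against 12.57 to 12.71. What the number stands for is not given in the sources used here, and what sets these arrays apart was not tested. Without them 0 members were called in each comparison.

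**Figure D5:**
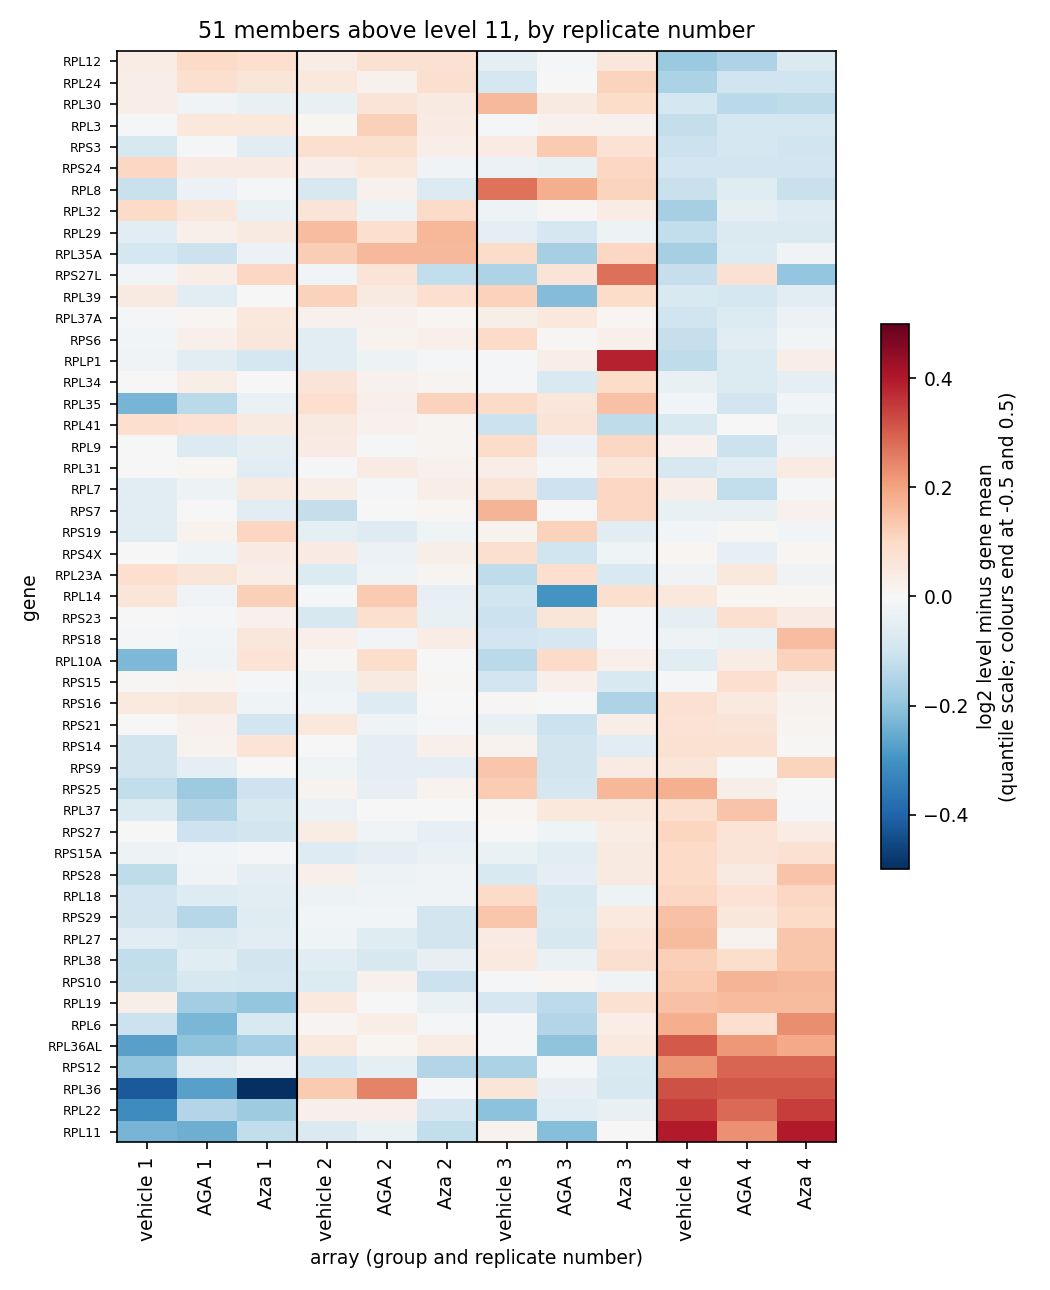
Level of 51 members (those above level 11) on the 12 arrays, as log2 intensity on the quantile scale minus the gene's mean, with arrays ordered by replicate number and genes by their mean on the arrays numbered 4; colours end at -0.5 and 0.5. The right-hand block of 3 arrays is red for RPL11, RPL22, RPL36 and RPS12 and blue for RPL12 and RPL24 in all 3 groups.

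Other probe sets of the same gene did not always share the sign. Of the 23 members with at least 2 probe sets, all probe sets of a gene had 1 sign in 11 for AGA and in 12 for Aza, with a median spread of 0.15 and 0.11 log2. RPS14 spread most for AGA, from -0.22 to 0.70, the latter on a probe set at a level of 0.38. RPLP2 spread most for Aza, from -1.14 to 0.36, on 2 dim probe sets. RPS28 differed by 0.01 ± 0.09 for AGA on its brightest probe set. Its dimmer ones, at levels of 6.59 and 4.71, differed by -0.53 ± 0.12 and -0.84 ± 0.15. With the probe sets of each gene averaged, RPS28 was at -0.45 ± 0.09, unadjusted p = 0.00159 by limma. The lowest adjusted p among the members was then 0.41. The 16 ribosomal protein genes on shared probe sets, which are not members, had medians of 0.00 and 0.00 on the quantile scale and 0.20 and 0.16 on centred arrays, with 0 called by limma on the quantile scale. At an unadjusted p under 0.05 there were 0 for AGA there, against 9.52% of all probe sets. With the intensity trend there were 3, all lower, against 11.8%. On centred arrays with the trend there were 13, all higher, against 11.9%.

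Members with and without the TOP tract gave similar medians. For AGA the 34 with it had a median of 0.00 on the quantile scale and 0.20 on centred arrays, and the 16 without it 0.00 and 0.17. For Aza the centred medians were 0.17 and 0.15. The 4 members that lay apart from vehicle with AGA on the quantile scale, RPS15 and RPS27L above and RPS4X and RPL9 below, had no tract at the annotated start. They were picked out after their values were seen, and 16 of the 50 matched members had no tract. Of the 13 that lay above vehicle with AGA on centred arrays, RPL31, RPLP1, RPS6, RPS18, RPS19 and RPS23 had a tract. RPL10A, RPS7, RPS15 and RPS27L had none, and the others were not matched. A link to the tract was not tested.

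The related lists also held no gene called on the quantile scale with the replicate block and without the intensity trend. With the trend on the same scale MRPL15 and EIF1 were called, as given below. The 51 mitochondrial ribosomal protein genes build the separate ribosome of the mitochondrion. Their median was 0.14 for AGA, with 45 above 0 (88.2%, against 49.9% of all probe sets). For Aza it was 0.10, with 36 above 0 (70.6%, against 49.7%). On the deposited scale the medians were -0.12 and 0.02, against -0.24 and -0.06 for all probe sets. On centred arrays they were 0.17 and 0.11, against 0.04 and 0.03. No difference between this list and other probe sets was tested. MRPL15 was higher with AGA by 0.39 ± 0.11 in 4 of 4 pairs, adjusted p = 0.437, and was the gene called in that list with the intensity trend, adjusted p = 0.0465. MRPL58, a peptide release factor built into that ribosome, differed by 0.43 ± 0.11 in 4 of 4 pairs for AGA. MRPS18A differed by 0.51 ± 0.15 for Aza, adjusted p = 0.912. Their start sites held a tract in 4 of 45 genes (8.89%).

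The 33 ribosome assembly factors had medians of -0.01 for AGA and 0.06 for Aza, with NOP10, a protein of box H/ACA particles, 0.31 ± 0.11 higher with AGA at an adjusted p of 0.472. The 29 translation initiation and elongation factors had medians of -0.02 and 0.00. EIF1, which guards start codon choice, was called with the intensity trend for Aza against AGA, at -0.18 and an adjusted p of 0.0369. The 13 genes of RNA polymerase I and its factors had medians of -0.02 and -0.06, and POLR1C, a subunit shared with RNA polymerase III, differed by 0.28 ± 0.11 for AGA and 0.27 ± 0.11 for Aza. The 12 genes of mTOR and S6 kinase control had medians of -0.02 and -0.02. EIF4EBP1, the mTOR substrate that restrains cap binding, differed by 0.48 ± 0.15 for AGA in 4 of 4 pairs, adjusted p = 0.449, and by 0.12 ± 0.15 for Aza. EIF6, which keeps the subunits apart, differed by 0.16 ± 0.09 and 0.14 ± 0.09, higher in 4 of 4 pairs under each drug.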

How the data were processed

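Per the labels, each array's deposited table gives an intensity for every probe set; the submitters' processing notes name GCOS, whose version and settings are not given in the sources used here, and any scaling the authors applied between arrays is unknown. Intensities were floored at 1, log2 transformed and quantile normalized. limma 3.58.1 (R 4.3.3) was fitted to the 22215 non-control probe sets of all 12 arrays with replicate number as a block, two-sided, with Benjamini-Hochberg adjustment over all of them and a threshold of 0.05. SE is the moderated standard error. Every fit with the intensity trend also used limma's robust setting. Named genes were drawn from the 6 members with the lowest p per direction and comparison, fixed members by role, and 3 genes per other list. Not all of these are described. Left out were, among others, RPL6 and RPS29, lower with AGA, and RPS16, RPS21 and RPS29, lower with Aza. RPL7 and RPL35A, higher with Aza than with AGA, and RPL41, lower, were also left out. Genes named for non-overlap, for a call in an alternative, for the spread of their probe sets or for the arrays numbered 4 were chosen after their values were seen. The members and lists were chosen with earlier results of these data known. The script was tested on simulated data. Same-numbered arrays correlated in their deviations from group means at 0.0589 to 0.261 over all probe sets (6 of 12 pairs over 0.1) and at 0.368 to 0.781 over the probe sets above the median level, against at most 0.0292 and 0.181 for other pairs; the number was used as a block because the working rule pairs the groups by it. The number of arrays limits the precision.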

Additional observations from a re-analysis of the deposited data

Results flagged for a closer look

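In groups of 4 arrays, 1 array stood apart from the other 3 in 2 of 108 groups examined by Dixon's ratio of gap to range; chance alone gives about 1 in 20. For RPS23 with AGA, the array numbered 1 was at 13.2 on the quantile scale while the others were at 13.27 to 13.29. For the members' median level on centred arrays, the AGA array numbered 3 was at 7.895 and the other AGA arrays at 7.858 to 7.864.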

How the results depend on the processing

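No member was called in the 4 comparisons when 1 array was left out in turn (0 to 0), and the median difference over the 58 genes then ranged from -0.01 to 0.01 for AGA, 0.01 to 0.03 for Aza, 0.01 to 0.03 for Aza against AGA and 0.01 to 0.02 for both drugs. Scaling moved that median. On the deposited scale it was -0.09, 0.07, 0.16 and -0.01 in the same order, and on centred arrays 0.19, 0.16, -0.03 and 0.18; these values were the same with or without the replicate block and with the intensity trend. Without the arrays numbered 4 the medians were -0.09, 0.10 and 0.20 on the deposited scale for AGA, Aza and Aza against AGA, and 0.22, 0.15, -0.06 and 0.18 on centred arrays. Without the replicate block on the quantile scale 0 members were called, and 2, 2, 3 and 1 of all probe sets. Centred arrays with the block and the trend called 1 member, RPS23, for AGA (adjusted p = 0.0402); the cause was not tested. The settings that join a scale with the trend, with no block or without number 4 were chosen after seeing the data. Of 2614 settings of single genes, 2206 moved by less than the spread between replicates or kept their call, 407 moved and 1 gained a call. Dim probe sets limit the precision for RPL39L, RPL3L, RPL10L and RPLP2.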
